A study of Saccharomyces cerevisiae with 6 samples.

Results

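Of 357 measured Saccharomyces cerevisiae open reading frames (ORFs) that still carry only a systematic name, 25 differed at least 2-fold between a GCN4 deletion strain and the wild-type strain FY4. Of these 25 ORFs, 24 were higher and 1 was lower in the deletion. They were chosen by that difference itself: a gap of at least 1 between the group means of log2 intensity, with the higher mean above 7. Their deletion against wild-type differences are therefore given as a description, with no test. The same limits were passed by 3.89% of all 5449 genes (3.43% higher and 0.459% lower), by 7% of the unnamed ORFs (6.72% higher), by 7.04% of ORFs with a suffixed systematic name and by 3.58% of the genes with a standard name.

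The data were 6 Affymetrix arrays, with 3 of the deletion strain and 3 of FY4, a prototrophic laboratory strain. Both strains had been grown in batch at 30°C in minimal medium with glucose and harvested in exponential phase, to ask how the deletion strain differs from its reference. Which strain was the parent of the deletion, and how much of GCN4 was removed, is not stated in the labels. Nor do they say whether replicates came from separate cultures, and the p-values cover array-to-array spread, which may be technical. In RNA of whole cultures, fewer cells that express a gene and less of its RNA per cell cannot be told apart.

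Gcn4 is a basic leucine zipper activator that yeast uses to switch on amino acid biosynthesis genes, above all when amino acids are scarce. A systematic name gives the chromosome (second letter), the arm (left or right), a running number from the centromere and the strand (W or C). An ORF keeps only such a name when no standard gene name has been reserved for it, which often means that its product has been little studied. Several such ORFs lie close to chromosome ends, in regions rich in duplicated gene families such as flocculins and seripauperins.

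GCN4 itself was at the background level on the 3 deletion arrays, with log2 intensities of 4.21, 4.48 and 4.18, against 14.51, 14.20 and 14.30 in the wild-type. The background level of an array, the 95th percentile of probe sets for other species, was 6.08 to 6.61. The median intensity of all genes was 2281 to 2341 on the deletion arrays and 2112 to 2206 on the wild-type arrays. Across genes, which are not independent replicates, the correlation was 0.988 to 0.996 between arrays of 1 strain and 0.952 to 0.963 between strains. By limma, 3 of 7 a-specific genes, which MATa cells express, rose: ASG7 4.46-fold, BAR1 1.65-fold and STE2 1.16-fold (adjusted p of 0.000115, 0.000541 and 0.0279). STE6, MFA1, MFA2 and AGA2 did not pass, but all 7 did, as higher, with a block for replicate number. Over all 5449 genes 1925 were called higher with the block, against 1338 without it. The 7 a-specific genes averaged 11.76 to 14.26 in the deletion and 9.60 to 14.05 in the wild-type. The 4 alpha-specific genes averaged 6.64 to 10.66 in the deletion and 5.94 to 10.12 in the wild-type. Of these, SAG1 and MF(ALPHA)1 rose and STE3 and MF(ALPHA)2 fell. Of 6 prototrophy genes, the 5 measured averaged 11.90 to 14.22 in the deletion and 12.44 to 14.37 in the wild-type. Of these LEU2 and HIS3 fell, and URA3, LYS2 and MET17 did not pass (MET17 passed with the block, adjusted p = 0.0433). The part of these shifts in the results that follow was not tested.

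The 25 ORFs were weakly expressed. Their median log2 level was 9.27 in the deletion and 7.94 in the wild-type, against 11.18 and 11.07 for all genes. For all unnamed ORFs measured it was 10.41 and 10.29. Choosing ORFs by a difference that was mostly higher in the deletion also favours low wild-type levels. In the deletion 22 of the 25 lay below the median gene, and in the wild-type all 25 did. All 25 were above the background level on every deletion array. For the ORFs higher in the deletion this follows largely from the choice, which required the higher mean to be above 7. In the wild-type 18 were above it on every array, 2 on 1 of 3 arrays and 5 on none.

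Each ORF was measured on a single probe set that was not marked as matching more than 1 gene. Whether these probe sets also read RNA of related genes was not tested. For all 25 the lowest array of the higher group lay above the highest array of the lower group, by 0.60 to 3.37 on the log2 scale. Groups did not overlap for 47.5% of all genes either. Of the 18 ORFs above background on every array, the difference was above 4-fold for 2, between 3-fold and 4-fold for 3, and below 3-fold for 13. For the other 7 only a bound can be given, with wild-type values below background set to it, and the bounds ran from at least 1.68-fold to at least 2.97-fold.

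**Figure D1:**
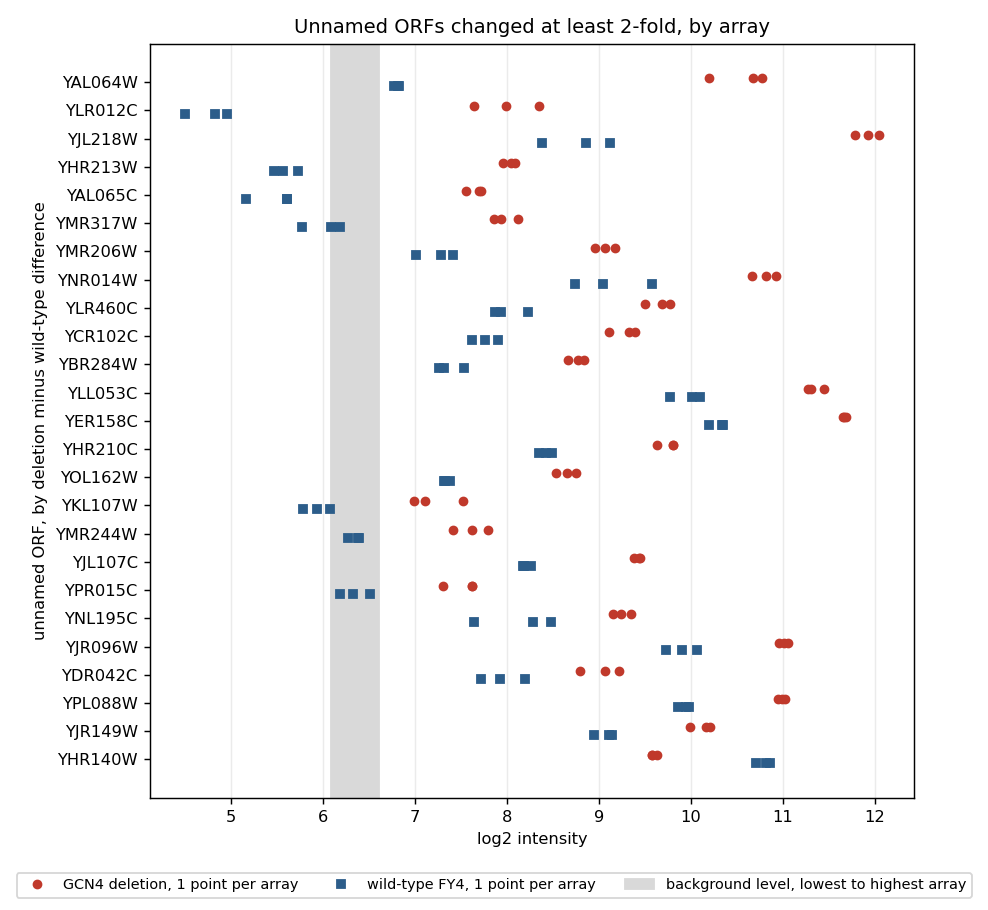
Log2 intensity of the 25 unnamed ORFs on each array, ordered by the deletion minus wild-type difference. Circles are GCN4 deletion arrays, squares are wild-type arrays, and the grey band spans the background levels of the arrays (6.08 to 6.61). The groups are apart for every ORF, YHR140W alone is lower in the deletion, and 5 ORFs lie at or below background on all wild-type arrays.

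The unnamed ORF with the widest gap was YAL064W, a short ORF of the left end of chromosome I whose product has no known function. Its log2 intensity was 10.77, 10.68 and 10.20 on the deletion arrays and 6.78, 6.82 and 6.83 on the wild-type arrays. All deletion arrays were thus far above the wild-type arrays, which lay just over the background level. The mean was 10.55 ± 0.31 in the deletion and 6.81 ± 0.03 in the wild-type (SD, n = 3 each), a 13.4-fold difference.

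YAL065C, on the same chromosome end, resembles the flocculin genes, which encode cell wall proteins that let yeast cells stick to each other. Its log2 intensity was 7.72, 7.70 and 7.55 in the deletion, against 5.61, 5.16 and 5.61 in the wild-type. The wild-type arrays were all at or below background, so the difference was at least 2.3-fold. YHR213W, near the right end of chromosome VIII, is a gene fragment that also resembles flocculins. It had 8.09, 7.95 and 8.04 in the deletion, against 5.46, 5.57 and 5.73 in the wild-type. No wild-type array was above background here either, and YHR213W was at least 2.97-fold higher in the deletion.

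The measured flocculin genes moved in the same direction as these 2 ORFs. FLO1 rose 23.7-fold, to a log2 level of 12.50 ± 0.19 in the deletion against 7.93 ± 0.06 in the wild-type (SD, n = 3 each, adjusted p = 3.21e-06, limma). FLO9 rose 7.58-fold (adjusted p = 3.21e-06) and FLO10 4.34-fold (adjusted p = 6.16e-06). FLO5 was not analysed here. Across all genes limma called 32.2% (24.6% higher and 7.67% lower in the deletion). Among the outermost genes, the 10 annotated last at each chromosome end, where all 3 measured flocculin genes lie, it called 58.5% (47.8% higher). Flocculin genes share long repeats, and FLO9 was measured on a probe set that may match more than 1 gene, so RNA of a single family member may be read on several of these probe sets.

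The genes around these ORFs were not used to choose them. On the left end of chromosome I the 10 outermost measured genes include YAL064W and YAL065C. Of the other 8, 7 rose and 1, the glutamate dehydrogenase gene GDH3, fell, beside the 47.8% of outermost genes called higher. YAL063C-A, next to YAL064W, rose 3.8-fold to 9.89 ± 0.04 in the deletion against 7.97 ± 0.07 in the wild-type (adjusted p = 6.31e-06). SEO1, a putative permease gene, rose 1.79-fold (adjusted p = 0.000232). TDA8 and YAL067W-A also passed the test, but lay near or below background in both strains, so no fold is given. YAL064W-B had a log2 difference of 0.39 (adjusted p = 0.0184). Its call ended under each scaling (adjusted p of 0.0783 by median centring, 0.719 by quantile normalization and 0.218 by cyclic loess). Removing deletion replicate 1 or 3 ended it too (adjusted p of 0.0636 and 0.0504).

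On the right end of chromosome VIII the 10 outermost measured genes include YHR210C and YHR213W. Of the other 8, 4 rose, 1 fell and 3 did not pass. The measured genes here reach further in than the 10 annotated last. Of those that rose, CRG1, YHR212W-A and YHR213W-A lie outside that set. YHR214C-D, the other gene that rose, was at or below background on all wild-type arrays and rose at least 1.23-fold (adjusted p = 0.0424, limma). Called higher were 24.6% of all genes and 47.8% of outermost genes. With a block for replicate number BAT1, a branched-chain aminotransferase gene with a log2 difference of -0.14, passed as lower (adjusted p = 0.0349, against 0.106 without it). YHR212W-A, at or below background on all wild-type arrays, rose at least 2.52-fold (adjusted p = 0.000617). CRG1, a methyltransferase gene needed to survive the drug cantharidin, rose 2.22-fold (adjusted p = 9.36e-05), and YHR213W-A rose 1.84-fold (adjusted p = 0.000611). IMD2, an inosine monophosphate dehydrogenase gene on a shared probe set, was the gene that fell.

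**Figure D2:**
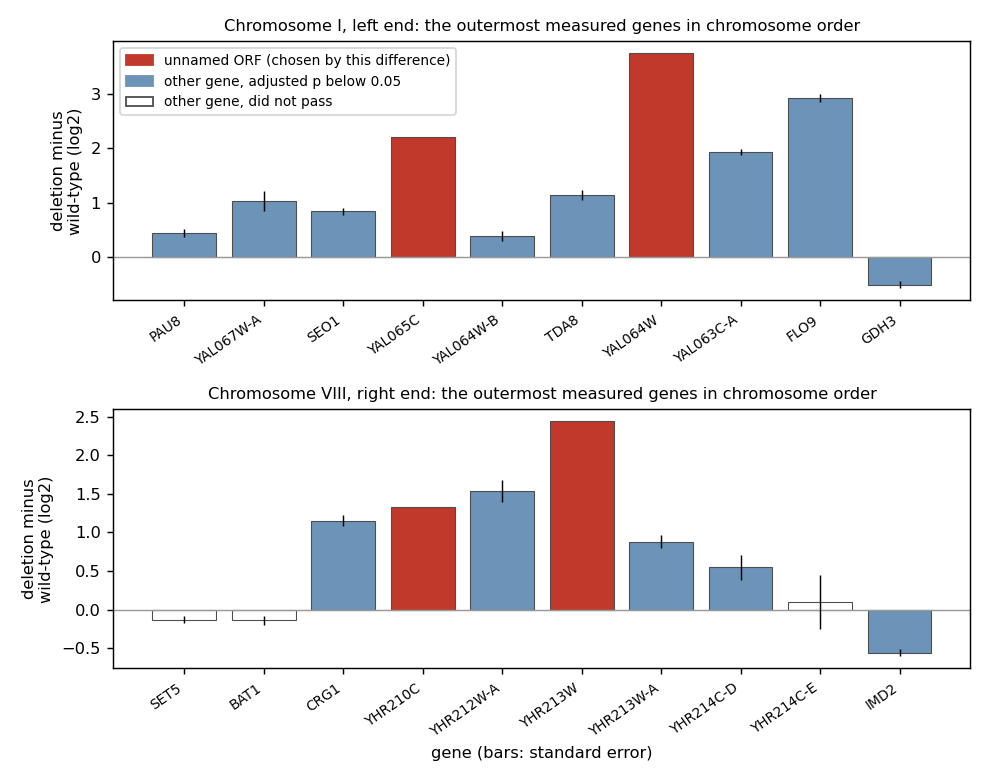
Deletion minus wild-type difference (log2) of the 10 outermost measured genes at the left end of chromosome I and the right end of chromosome VIII, in chromosome order. Red bars are unnamed ORFs chosen by this difference, filled blue bars are genes that passed the limma test, open bars are genes that did not, and error lines are standard errors. Chromosome I runs from PAU8 at the end to GDH3, and 7 of its 8 blue genes rose. Of the 8 other genes on chromosome VIII 4 rose.

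Position near a chromosome end was shared by part of the ORFs. Among the 10 outermost annotated genes of a chromosome end lay 7 of the 25 ORFs (28%), against 13.2% of the unnamed ORFs measured and 4.11% of all genes measured. These 7 are YAL064W, YAL065C, YCR102C, YJL218W, YLR460C, YMR317W and YOL162W. The fold and level limits were passed by 14.9% of the outermost unnamed ORFs and by 15.6% of all outermost genes, against 5.81% of the other unnamed ORFs. By annotated gene length the 25 ORFs were 285 to 3423 bases, with a median of 849, against 939 for all unnamed ORFs and 1236 for all genes.

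Several of the ORFs resemble enzymes. YJL218W, similar to bacterial acetyltransferases, had a log2 intensity of 11.92, 12.05 and 11.78 in the deletion and 8.86, 9.12 and 8.38 in the wild-type. It had the highest level of the 25 ORFs in the deletion, where its mean of 11.92 ± 0.14 was above that of the median gene, against 8.79 ± 0.37 in the wild-type (SD, n = 3 each). The difference was 8.75-fold.

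YLR460C and YCR102C resemble quinone oxidoreductases and are close relatives of each other, so their probe sets may read each other's RNA. YLR460C had 9.69, 9.77 and 9.50 in the deletion, against 7.87, 8.23 and 7.93 in the wild-type, a 3.13-fold difference. YCR102C had 9.32, 9.39 and 9.10 in the deletion, against 7.62, 7.90 and 7.76 in the wild-type, a 2.86-fold difference. Both are neighbours of seripauperin genes, a family of near-identical genes: PAU3, beside YCR102C, rose 3.63-fold (adjusted p = 1.72e-05) and PAU4, beside YLR460C, rose 1.66-fold (adjusted p = 0.0011), each on a shared probe set. YNL134C, another relative away from the chromosome ends, rose 1.28-fold (adjusted p = 0.00362).

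YHR210C, which resembles aldose 1-epimerases of galactose use, averaged 9.75 ± 0.10 in the deletion and 8.42 ± 0.07 in the wild-type. Its relative YNR071C rose 1.40-fold (adjusted p = 0.00446). Under quantile normalization and cyclic loess YNR071C did not pass (adjusted p of 0.805 and 0.119). GAL10, which carries the same domain, had a log2 difference of -0.11 and did not pass (adjusted p = 0.849). YBR284W resembles AMP deaminases and averaged 8.76 ± 0.09 in the deletion and 7.37 ± 0.15 in the wild-type. Its relatives AMD1, the AMP deaminase gene, and YJL070C had log2 differences of 0.09 and 0.19 and did not pass (adjusted p = 0.405 and adjusted p = 0.139). The call of YJL070C appeared without wild-type replicate 2 (adjusted p = 0.034).

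YJR096W, an aldo-keto reductase gene that acts on pentose sugars, had 11.06, 11.01 and 10.96 in the deletion, against 9.90, 10.07 and 9.73 in the wild-type. The deletion arrays lay close together and well above the wild-type arrays, and the difference was 2.16-fold. Of 5 other aldo-keto reductase genes 4 rose, against 24.6% of all genes: GCY1 2.64-fold (adjusted p = 1.32e-05), YDL124W 1.53-fold (adjusted p = 0.00114), GRE3 1.28-fold (adjusted p = 0.00334) and ARA1 1.18-fold (adjusted p = 0.0159). YPR1 had a log2 difference of 0.13 (adjusted p = 0.102, or adjusted p = 0.0482 when replicate number was a block). The call of ARA1 ended under median centring and quantile normalization (adjusted p of 0.133 and 0.0507). It also ended when replicate 1 of the deletion or of the wild-type was removed (adjusted p of 0.0516 and 0.0639).

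YPL088W, a putative aryl alcohol dehydrogenase gene, had 10.95, 10.99 and 11.02 in the deletion, against 9.94, 9.86 and 9.98 in the wild-type. The arrays of each strain lay close together, and the difference was 2.08-fold. All 4 measured genes of the aryl alcohol dehydrogenase (AAD) family rose, and all lie among the outermost genes, of which 47.8% were called higher. AAD4 rose 2.44-fold (adjusted p = 2.43e-05), AAD10 1.58-fold (adjusted p = 0.000201), AAD14 1.55-fold (adjusted p = 0.000353) and AAD3 1.35-fold (adjusted p = 0.0332). AAD3 and AAD4 lie on shared probe sets. The call of AAD3 was lost after median centring, quantile normalization and cyclic loess (adjusted p of 0.109, 0.184 and 0.111). Removing any 1 array ended it as well (adjusted p of 0.0609 to 0.107), except for wild-type replicate 3.

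YKL107W, a putative short-chain dehydrogenase gene, had 7.52, 7.11 and 6.98 in the deletion, against 6.08, 5.93 and 5.78 in the wild-type. It had the lowest mean of the 25 ORFs in the deletion and was at or below background on all wild-type arrays, so that the difference was at least 1.68-fold, a bound under the 2-fold limit. YJR149W, similar to nitronate monooxygenases, had 10.21, 9.99 and 10.16 in the deletion, against 8.94, 9.14 and 9.11 in the wild-type. With a difference of 1.06 on the log2 scale it lay closest to the fold limit.

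Transport was represented by 2 ORFs. YLL053C resembles aquaporins, membrane channels for water, and overlaps AQY2, with which it forms a single reading frame in some other strains. YLL053C had 11.30, 11.44 and 11.27 in the deletion, against 10.09, 9.77 and 10.01 in the wild-type, a 2.6-fold difference. AQY2 rose by a like amount, 2.76-fold, to 10.33 ± 0.10 in the deletion against 8.86 ± 0.07 in the wild-type (adjusted p = 4.15e-05). The other aquaporin gene, AQY1, fell 3.35-fold to 7.50 ± 0.09 in the deletion against 9.25 ± 0.21 in the wild-type (adjusted p = 0.000116). The directions of AQY2 and AQY1 held under each scaling tried.

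YOL162W belongs to the family of the allantoate permease Dal5 and lies beside YOL163W, another member. It had 8.75, 8.65 and 8.53 in the deletion, against 7.32, 7.38 and 7.32 in the wild-type, a 2.47-fold difference. YOL163W rose 1.47-fold (adjusted p = 0.00295), a call lost after quantile normalization (adjusted p = 0.616). SEO1, of the same family, rose, whereas DAL5 itself fell 2.8-fold to 10.65 ± 0.11 in the deletion against 12.14 ± 0.13 in the wild-type (adjusted p = 9.31e-05). The ORF and DAL5 thus differed in direction.

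**Figure D3:**
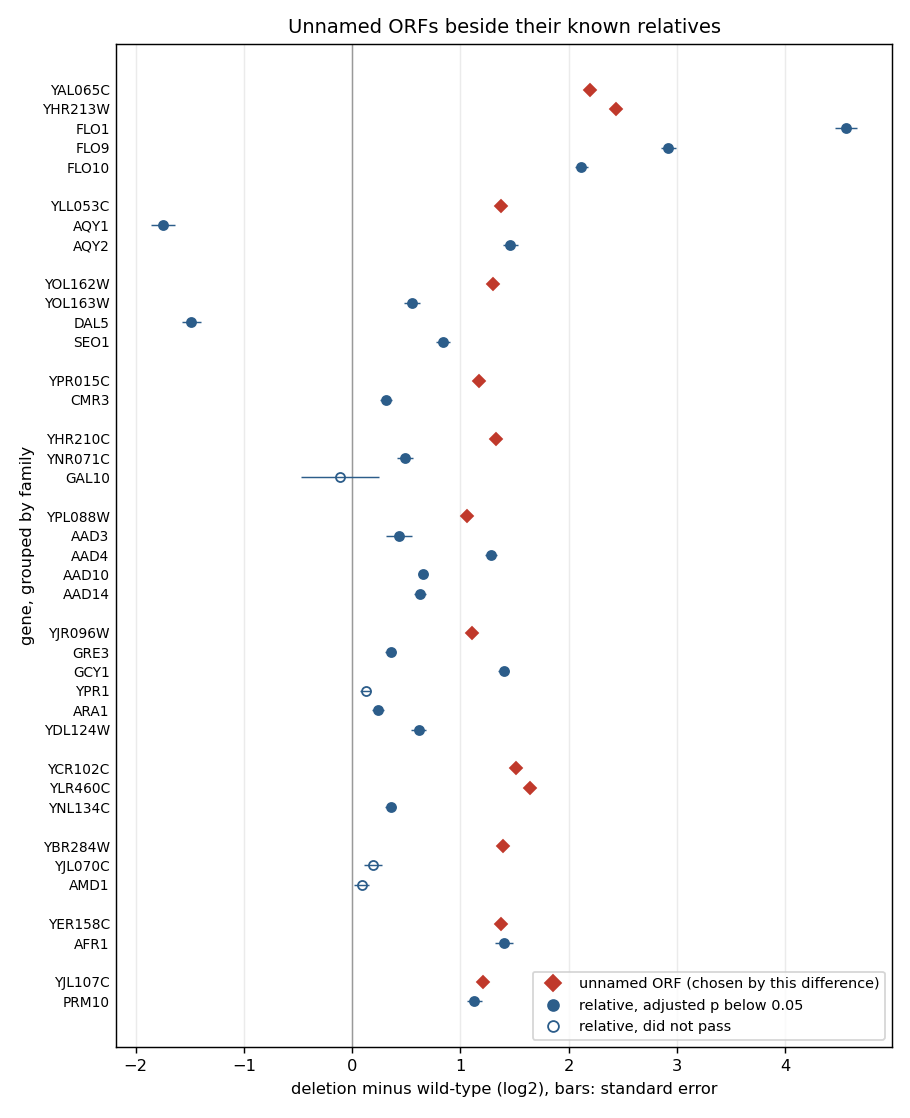
Deletion minus wild-type difference (log2) of 13 unnamed ORFs (red diamonds) and 25 relatives (blue circles, with standard errors), grouped by family. Filled circles passed the limma test and open ones did not. Flocculins and aryl alcohol dehydrogenases lie on the same side as their ORFs, AQY1 and DAL5 on the opposite side, and the AMP deaminase relatives near 0.

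The remaining ORFs have little known function. YMR206W and YNR014W are paralogs, copies kept from the ancient duplication of the yeast genome, and both were among the 25. YMR206W had 9.07, 9.17 and 8.96 in the deletion, against 7.28, 7.41 and 7.01 in the wild-type, a 3.56-fold difference. YNR014W had 10.93, 10.82 and 10.66 in the deletion, against 9.05, 9.57 and 8.74 in the wild-type, a 3.21-fold difference. The wild-type arrays of both had the same order, with replicate 2 high and replicate 3 low. They lie on different chromosomes, and their flanking genes changed little: PFK2, a phosphofructokinase gene, fell by 0.18 (adjusted p = 0.0283) and SMM1 had 0.19 (adjusted p = 0.0368) on the log2 scale. The call of PFK2 ended when any 1 array other than deletion replicate 3 was removed (adjusted p of 0.0713 to 0.103), and under quantile normalization (adjusted p = 0.0505). Each scaling ended that of SMM1 (adjusted p of 0.331 to 0.575), as did array weights (adjusted p = 0.0503) and the removal of any 1 array other than replicate 1 of the wild-type (adjusted p of 0.0746 to 0.105). HFA1 and PHO91, on their other sides, had 0.08 and -0.01 and did not pass.

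YER158C is a paralog of AFR1, a gene that acts in pheromone-induced cell shaping. YER158C averaged 11.67 ± 0.02 in the deletion and 10.29 ± 0.09 in the wild-type, and AFR1 rose by a like amount, 2.64-fold, to 11.19 ± 0.05 in the deletion against 9.79 ± 0.15 in the wild-type (adjusted p = 9.01e-05). YJL107C overlaps the pheromone-regulated gene PRM10. It had 9.45, 9.38 and 9.43 in the deletion, against 8.26, 8.19 and 8.17 in the wild-type, and PRM10 rose 2.19-fold (adjusted p = 0.000114). On its other side IME2, a meiotic kinase gene, rose 1.76-fold (adjusted p = 0.00498).

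YPR015C, a putative zinc finger transcription factor gene, had 7.62, 7.62 and 7.30 in the deletion, against 6.51, 6.32 and 6.19 in the wild-type. Only 1 of 3 wild-type arrays was above background, so the difference was at least 2.05-fold. Its relative CMR3, also a zinc finger gene, rose 1.24-fold (adjusted p = 0.00852), a call lost after quantile normalization (adjusted p = 0.0601).

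YLR012C, of unknown function, had 7.99, 8.35 and 7.64 in the deletion against 4.83, 4.50 and 4.96 in the wild-type. Because no wild-type array was above background, the difference was at least 2.9-fold. Neither flanking gene passed the test: GAT3 lay below background in both strains, and LOT6, a quinone reductase gene, had a log2 difference of 0.29 (adjusted p = 0.0586). LOT6 passed when replicate number was a block (adjusted p = 0.00373), with array weights (adjusted p = 0.0249) and without deletion replicate 3 (adjusted p = 0.0436).

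YMR317W, the longest of the 25, had 8.12, 7.94 and 7.86 in the deletion, against 6.08, 6.18 and 5.77 in the wild-type. It was at least 2.85-fold higher in the deletion, since the wild-type arrays were at or below background. DIA1, a gene of invasive and pseudohyphal growth, is the nearest measured gene on its left, with 1 unmeasured gene between, and rose 1.87-fold (adjusted p = 0.00024). YMR244W, of unknown function, had 7.80, 7.41 and 7.62 in the deletion, against 6.27, 6.38 and 6.40 in the wild-type. It was above background on 1 of 3 wild-type arrays, for a difference of at least 2.17-fold.

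YNL195C, of unknown function, had 9.35, 9.24 and 9.16 in the deletion, against 8.28, 8.48 and 7.64 in the wild-type. With an SD of 0.44 its wild-type arrays were the most widely spread of the 25 ORFs, replicate 3 lying low. Its neighbour YNL194C rose 1.69-fold (adjusted p = 0.00545). Under quantile normalization and cyclic loess YNL194C did not pass (adjusted p of 0.2 and 0.0536). YDR042C, also of unknown function, had 8.79, 9.21 and 9.07 in the deletion, against 7.72, 8.19 and 7.92 in the wild-type. In both strains replicate 2 was the highest and replicate 1 the lowest. The next measured gene beside it, NRG1, a repressor of glucose-repressed genes, rose 2.92-fold to 10.45 ± 0.10 in the deletion against 8.91 ± 0.09 in the wild-type (adjusted p = 3.8e-05), with 1 unmeasured gene between them.

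YHR140W, of unknown function, was the ORF lower in the deletion. Its log2 intensity was 9.57, 9.63 and 9.57 on the deletion arrays and 10.71, 10.86 and 10.81 on the wild-type arrays. The difference was 2.3-fold, and the arrays of each strain lay close together, with no overlap. SPS100, the nearest measured gene on its left with 2 unmeasured genes between, rose 1.86-fold (adjusted p = 0.000279), so YHR140W and its neighbour differed in direction. RPL42B, on the right, had a log2 difference of -0.02 and did not pass.

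Over all 25 ORFs the nearest measured gene on each side gave 49 flanking genes, none of them among the 25. By limma, 25 rose, 3 fell and 21 did not pass, with a median log2 difference of 0.29 against 0.09 over all genes. Across all genes 32.2% were called. The flanks of the 7 outermost ORFs were called in 11 of 14 cases, and those of the others in 17 of 35 (48.6%). These 14 flanks are themselves outermost genes, of which 58.5% were called. Calls were made for 9 of 13 divergent, 16 of 24 tandem and 4 of 13 convergent flanks, where 1 gene counts as both divergent and tandem because it lies between YHR210C and YHR213W. These differences between sets were not tested.

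The split into higher and lower calls depended on scaling. Over all genes 1338 were higher and 418 lower as deposited, 778 and 703 after median centring, 692 and 873 after quantile normalization, and 868 and 690 after cyclic loess. A block for the replicate number gave 1925 higher and 666 lower. Among the flanks, 18 rose and 7 fell after quantile normalization. YCR101C, beside YCR102C, changed direction there, with a log2 difference of 0.28 as deposited (adjusted p = 0.00405) and -0.22 after it (adjusted p = 0.0338). Its call ended under cyclic loess (adjusted p = 0.816).

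Of the flanking genes, 10 were called higher with a fitted log2 difference of at least 1, as were 3.6% of all genes. For 8 of them, YAL063C-A, PAU3, NRG1, CRG1, YHR212W-A, REE1, PRM10 and AQY2, the fold or its bound was at least 2. The other 2, TDA8 and DAN1, rest on values below background. PRM10 and AQY2 overlap their ORFs on the same strand, so they may share transcripts with ORFs chosen by this contrast. REE1, which acts on enolase gene expression and lies beside YJL218W, rose 2.14-fold to 12.34 ± 0.16 in the deletion against 11.25 ± 0.19 in the wild-type (adjusted p = 0.00109). HXT9, a hexose transporter gene on the other side of YJL218W, had a log2 difference of -0.31 and did not pass (adjusted p = 0.246). It passed with the block (adjusted p = 0.0481) and under quantile normalization (adjusted p = 0.0489). DAN1, an anaerobic cell wall gene beside YJR149W, was above background on 2 deletion arrays and no wild-type array, and rose at least 1.22-fold (adjusted p = 0.0112). BAT2, the branched-chain aminotransferase gene on the other side, fell by 0.22 on the log2 scale (adjusted p = 0.00873).

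**Figure D4:**
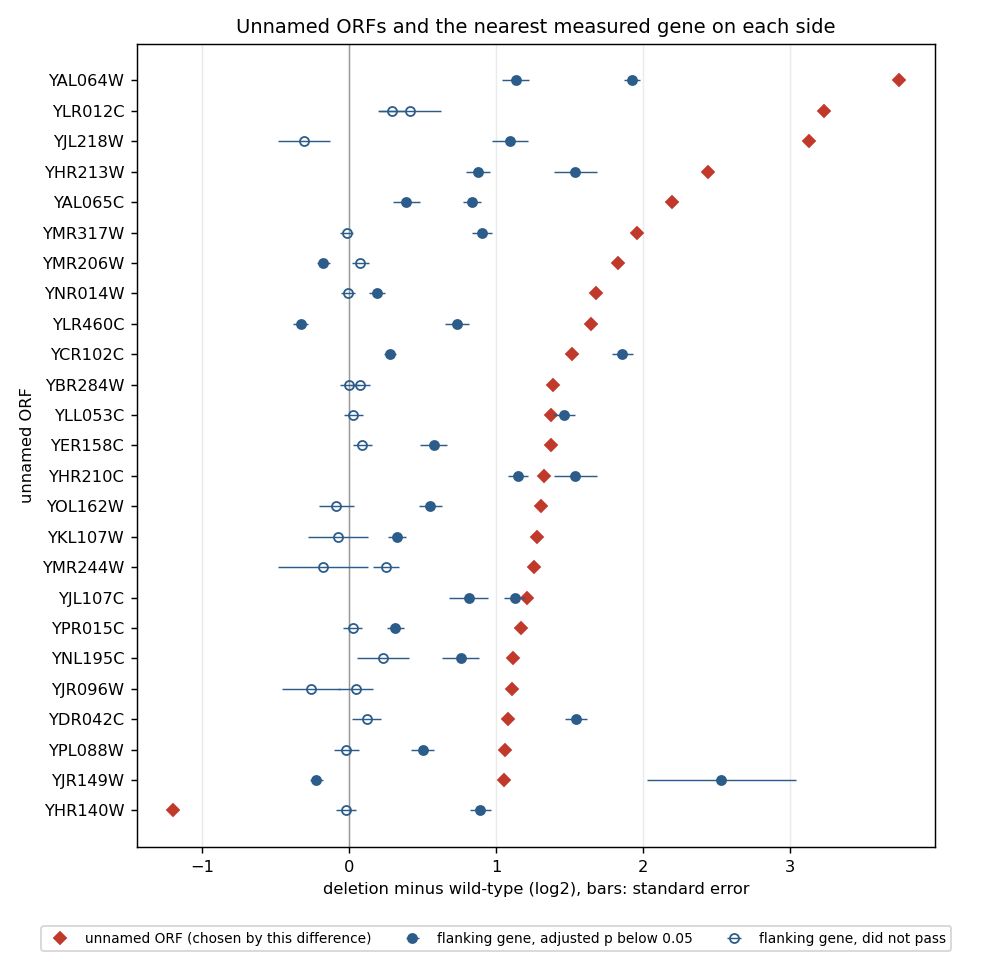
Deletion minus wild-type difference (log2) of each unnamed ORF (red diamond) and of the nearest measured gene on each side (circles, with standard errors). Filled circles passed the limma test and open ones did not. Of the 49 flanking genes 28 passed, and beside YBR284W, YJR096W, YLR012C and YMR244W neither flank did.

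Low level moved with the size of the difference over all genes, as the plot of difference against level shows. The bins of mean log2 level with most of the 25 ORFs were 8 to 9, with 8 ORFs, and 6 to 7, with 7. Genes between 8 and 9 had a median difference of 0.20 and 17.2% of them passed the limits, and genes between 6 and 7 had 0.36 and 16.2%. Between 7 and 8, with 1 of the ORFs, these were 0.43 and 21.8%, and between 11 and 12, with none, 0.08 and 2.08%. After quantile normalization the medians were -0.10 between 6 and 7, -0.11 between 7 and 8, -0.18 between 8 and 9 and -0.02 between 11 and 12. The part of level and scaling in the differences of the 25 ORFs was not tested. Quantile normalization left 14 of the 25 ORFs past the limits, cyclic loess 17 and median centring 22. The scalings moved the median over all genes by -0.11, -0.08 and -0.10 in that order, and no ORF changed sign. With ORFs chosen for a difference of at least 1, a kept sign follows largely from the choice.

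**Figure D5:**
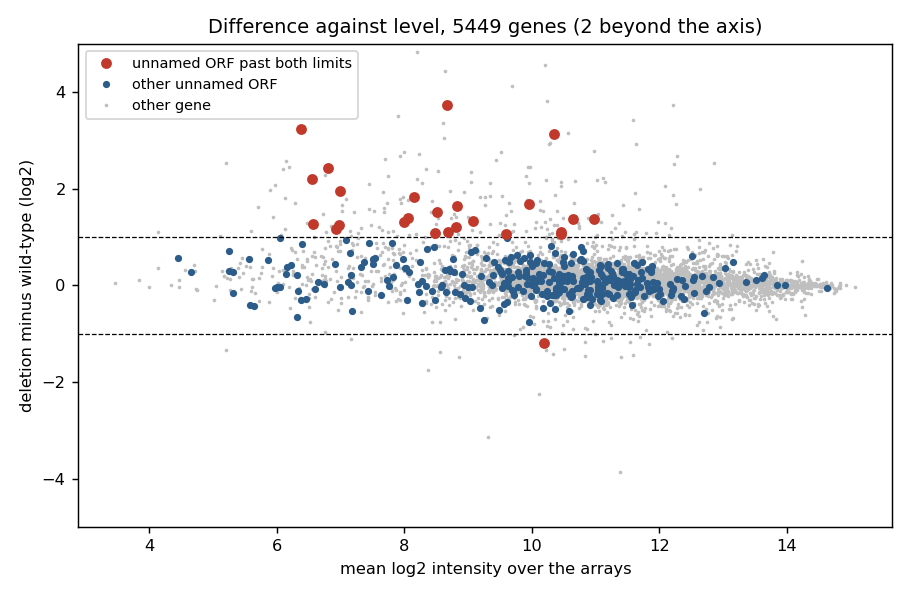
Deletion minus wild-type difference (log2) against the mean log2 intensity over the arrays for 5449 genes, 2 of which lie beyond the axis. Red points are the 25 chosen ORFs, blue points the other unnamed ORFs and grey points the remaining genes, and dashed lines mark the 2-fold limit. The red points lie at low and middle levels, and the spread narrows toward high levels.

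Just inside the upper fold limit lay YJR149W, YPL088W and YDR042C, with log2 differences of 1.06, 1.06 and 1.08. Just outside it lay YLL056C, YGL262W and YOR186W, with 0.99, 0.98 and 0.94. YGL262W was above background on no wild-type array and YOR186W on 2 of 3, so their differences were at least 1.06-fold and at least 1.89-fold, and the place of YGL262W beside the limit rests on values below background. On the lower side YHR140W stood at -1.20, and the next unnamed ORFs, YLR156W, YER187W and YJL043W, at -0.76, -0.72 and -0.65. YJL043W was above background on 1 of 3 deletion arrays and at least 1.38-fold lower. No unnamed ORF passed the fold limit without passing the level limit.

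Taken by replicate number, the deletion minus wild-type difference reached 1 for all 25 ORFs in pair 1, 22 in pair 2 and 25 in pair 3. The mean of these 3 differences is the value by which the ORFs were chosen, so the counts follow largely from the choice. The 3 exceptions in pair 2 were YNL195C, YJR096W and YJR149W, with 0.76, 0.95 and 0.85. Wild-type replicate 2 was the highest wild-type array for 14 of the 25 ORFs (56%, against 39.3% of all genes). Deletion replicate 3 was the lowest deletion array for 16 of them (64%, against 34.7% of all genes). Replicates of the ORFs were spread more widely than those of most genes: the median SD was 0.11 in the deletion and 0.15 in the wild-type, against 0.08 and 0.08 over all genes.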

How the data were processed

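RNA of 3 GCN4 deletion and 3 wild-type samples, grouped by sample title, was measured on Affymetrix arrays. R 2.8.0, affy and RMA are named in the submitters' processing notes, which do not say what each did. The authors deposited linear normalised intensity per probe set, and log2 was taken here with no pseudocount from those deposited values. Of 10928 probe sets, 5498 named a gene of the R64 assembly's gene table, which was used for names, gene order and gene length only. The brightest probe set was kept for each of the 47 genes with several. No count depth exists for arrays, and their number limits the precision. A fold against a group at background is "at least": values below the background level were set to it, and nothing is given where both groups lie there.

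Flanking genes and relatives were tested with limma 3.58.1 in R 4.3.3 over 5449 genes (two-sided, Benjamini-Hochberg, threshold 0.05), checked on simulated data. The members, lists and naming rule were chosen with earlier results of these data known, and the relatives after the members' values were seen. All members, the 3 unnamed ORFs next to each limit, flanks called at 2-fold, GCN4 and marker genes are named by that rule. Other names were chosen after their values were seen. Same-numbered arrays deviated together (r of 0.69, 0.53 and 0.71, above the limit of 0.1). Deletion replicate 1 with wild-type replicate 2 was also above that limit (r = 0.23), and the other unlike-numbered pairs were negative (r of -0.64 to -0.17). The pairing by replicate number rests on this check, as no label describes a shared batch. Alternatives covered scaling, level limit, probe sets, symbols, test settings, the block and leaving out each array. Figures used matplotlib 3.10.9.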

Additional observations from a re-analysis of the deposited data

How the results depend on the processing

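All 25 ORFs kept their direction under quantile normalization, median centring, cyclic loess and on leaving out each array. This gives no support, since the ORFs were chosen for a difference of at least 1. Their groups did not overlap, so leaving out an array could not turn a direction. Quantile normalization gave 13 higher and 2 lower unnamed ORFs past the limits, 4.2% of those measured. It lost 11 of the 25 ORFs and added YBL044W. A level limit of 8 left 19 of the 25. Leaving out each array gave 23 to 26 higher and 1 lower, 6.72% to 7.56% of unnamed ORFs, and 205 to 226 of all genes past the limits. Over all genes, limma called 1190 to 1496 genes on leaving out an array, 920 to 1141 higher and 270 to 355 lower, with 270 lower without wild-type replicate 1 and 272 without deletion replicate 2. Higher calls numbered 692, 778 and 868 after quantile normalization, centring and cyclic loess, and lower calls 873, 703 and 690. The replicate block gave 666 lower. Among the flanks 25 to 27 were called on leaving out an array, 23 to 25 higher and 2 to 3 lower, and 7 were lower after quantile normalization. Divergent flanks alone gave 9 calls, 8 higher and 1 lower, of 13. Leaving out the flanks of outermost ORFs, chosen after the data were seen, gave 17 calls, 15 higher, of 35. Fewer genes enter these counts, but the shares called differed too. They were 69.2% of divergent flanks and 48.6% without the flanks of outermost ORFs, against 57.1% of all flanks. Of 25 relatives 19 to 21 were called on leaving out an array, 17 to 19 higher and 2 lower, against 21 called with all arrays. With all arrays 32.2% of all genes were called, and 58.5% of the outermost genes, where part of the relatives lie. YCR101C turned to -0.22 after quantile normalization. The block, the pairing of same-numbered arrays, called 31 flanks and 22 relatives, adding LOT6, ZRC1 and HXT9 to the flanks and YPR1 to the relatives. Over all 5449 genes it called 2591. Causes of these changes were not tested. The planned promoter motif search was not run, because sequence was not used here. Signal near background limits what can be said of the 7 ORFs that were not above it on every wild-type array.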

Other observations

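ORFs with a suffixed systematic name, which the naming rule leaves out, passed the same fold and level limits in 10 of 142 cases (7.04%). Of these 10, YGR109W-A had a log2 level of 10.90 in the deletion and 8.14 in the wild-type, and YGR109W-B was 4.7-fold higher in the deletion. YIL082W-A had 13.11 in the deletion and 11.05 in the wild-type. These 3 belong to Ty3 retrotransposons, mobile elements whose copies are near-identical, so their probe sets cannot be assigned to a single copy. YER053C-A had 10.22 in the deletion and 7.88 in the wild-type. YDR034C-A, the suffixed ORF that was lower in the deletion, had 6.62 there and 7.73 in the wild-type. These values are a description, since they come from the same contrast as the limits.

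Of 3470 probe sets with no gene in the annotation used here, 10 were higher and 3 lower by the same limits (0.375%). That annotation does not give the species these probe sets target, so this share cannot be set beside those of the genes.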
